A study of Mus musculus with 6 samples.

Results

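The genes described here act in round spermatids and sperm, and their DNA methylation was measured in cultured spermatogonia that had been stored frozen in space or on Earth. The group of 40 genes was chosen by name for its known role in spermatids and sperm, and the CpG sites of each gene were those whose closest transcription start site (TSS) was that of the gene. Of the 40 genes, 38 had a site in the deposited table, which lists 31751 genes. A site within 5 kb of the TSS with at least 10 reads in all 6 samples, called a commonly covered site here, was found for 24 of the 40 genes, compared with 19731 genes of the whole table. These 24 genes had 337 such sites, 251 of them within 1 kb of the TSS in 17 genes.

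Both groups, the Space GS cells and the Ground GS cells, had 3 replicates. GS cells are long-term cultures of mouse spermatogonia in which a portion of the cells are stem cells. They are grown on embryonic fibroblast feeder cells, and whether feeder cells were removed before the DNA was taken is not given in the sources used here. All 6 samples had the genotype DBA/Tg14(act-EGFP-OsbY01), a green fluorescent transgene on a DBA background, and all had been frozen for 6 months and then thawed and cultured. The Space GS cells spent the 6 months in the ISS, and the Ground GS cells spent them on earth. The series gives the replicates as biological replicates without naming their source cultures, so p-values measure the spread between these samples. Reduced representation bisulfite sequencing (RRBS) was used, in which enzyme-cut, CpG-rich fragments are read after bisulfite conversion, so that methylated and unmethylated cytosines can be counted. Reads summed over all sites ranged from 28535973 to 33743845 per sample, with a median of 27 to 32 reads at the commonly covered sites.

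Spermatogonia do not yet need the proteins of sperm. After meiosis, round spermatids switch on a program driven in part by the activator CREM, and they build the acrosome, the flagellum and a compact nucleus in which histones are replaced first by transition proteins and then by protamines. Methylation of CpG-rich promoters generally goes with silencing, whereas promoters with few CpGs can be methylated or not with less bearing on activity. A methylation level is therefore not a measure of expression, and expression was not analysed here.

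To show what RRBS could and could not read at these genes, the promoters of 6 of them are printed from the RefSeq sequences of GRCm38.p6, from 250 bases before to 50 bases after the start of the transcript. This build differs from mm39, the build of the methylation table, and its coordinates apply to the sequences only. Each sequence runs from 5′ to 3′ in the direction of the gene, with every CpG in capitals. Prm1 and Tnp1 encode nuclear packaging proteins, Izumo1 the sperm protein that binds the egg, Zpbp2 an acrosomal protein, Tssk6 a kinase and Catsper2 an ion channel subunit.
Prm1, chr16:10796774-10797073 minus strand: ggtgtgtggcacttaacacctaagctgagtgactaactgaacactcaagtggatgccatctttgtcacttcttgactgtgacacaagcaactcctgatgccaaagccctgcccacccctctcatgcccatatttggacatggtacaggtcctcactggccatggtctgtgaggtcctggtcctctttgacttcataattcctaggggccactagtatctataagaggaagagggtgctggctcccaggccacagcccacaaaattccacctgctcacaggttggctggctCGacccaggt
Tnp1, chr1:73015850-73016149 minus strand: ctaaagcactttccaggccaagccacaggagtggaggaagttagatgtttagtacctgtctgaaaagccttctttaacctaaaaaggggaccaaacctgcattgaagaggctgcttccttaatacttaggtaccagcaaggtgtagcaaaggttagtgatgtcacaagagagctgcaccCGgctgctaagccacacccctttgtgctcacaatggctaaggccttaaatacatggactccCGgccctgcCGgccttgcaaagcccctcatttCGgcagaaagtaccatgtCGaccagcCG
Izumo1, chr7:45621561-45621860 plus strand: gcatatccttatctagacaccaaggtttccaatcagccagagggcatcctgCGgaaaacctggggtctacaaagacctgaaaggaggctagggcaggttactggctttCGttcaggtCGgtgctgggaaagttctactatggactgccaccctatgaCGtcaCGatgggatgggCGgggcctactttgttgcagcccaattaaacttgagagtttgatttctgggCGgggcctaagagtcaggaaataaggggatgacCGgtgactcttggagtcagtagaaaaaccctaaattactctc
Zpbp2, chr11:98550847-98551146 plus strand: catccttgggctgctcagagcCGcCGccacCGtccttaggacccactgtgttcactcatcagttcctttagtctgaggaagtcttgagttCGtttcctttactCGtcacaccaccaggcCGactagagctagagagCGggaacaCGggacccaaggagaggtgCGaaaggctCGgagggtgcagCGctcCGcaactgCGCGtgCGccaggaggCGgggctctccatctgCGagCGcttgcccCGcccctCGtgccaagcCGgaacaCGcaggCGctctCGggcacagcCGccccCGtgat
Tssk6, chr8:69901934-69902233 plus strand: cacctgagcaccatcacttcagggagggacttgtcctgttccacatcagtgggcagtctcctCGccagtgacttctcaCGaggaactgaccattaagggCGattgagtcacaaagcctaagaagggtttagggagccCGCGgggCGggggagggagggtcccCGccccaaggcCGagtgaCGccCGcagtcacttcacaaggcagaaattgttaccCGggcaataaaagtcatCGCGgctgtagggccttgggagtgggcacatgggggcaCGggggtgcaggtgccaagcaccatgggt
Catsper2, chr2:121413743-121414042 minus strand: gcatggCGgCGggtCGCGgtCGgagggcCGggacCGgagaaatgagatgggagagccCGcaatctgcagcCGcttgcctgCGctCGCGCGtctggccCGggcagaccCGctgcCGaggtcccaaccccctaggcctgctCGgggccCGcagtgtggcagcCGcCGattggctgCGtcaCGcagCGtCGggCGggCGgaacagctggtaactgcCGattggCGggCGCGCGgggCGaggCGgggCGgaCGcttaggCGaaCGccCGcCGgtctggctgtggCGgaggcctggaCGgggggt

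The promoters differed widely in CpG content. That of *Prm1* had 1 CpG, that of *Tnp1* had 6, and those of *Izumo1*, *Tssk6*, *Zpbp2* and *Catsper2* had 8, 14, 26 and 41. RefSeq promoters were found for 33 of the 40 genes. Taking for each gene its promoter with the most CpGs, the median was 6 CpGs for the 33 genes and 8 for the 27025 genes of the RefSeq table. A promoter with 20 or more CpGs was found in 4 of the 33 genes (12.1%, compared with 28.8% of all genes), and 15 genes had 4 or fewer (45.5%, compared with 36.5%). Measured from the TSS, 34 of the 41 CpGs of *Catsper2* coincided with listed sites and 31 with commonly covered ones. For *Zpbp2* this was 20 of 26, of which 5 were commonly covered, and for *Tssk6* 12 of 14, of which 3 were commonly covered. The letters of the full cAMP response element, TGACGTCA, which CREM is known to bind, were found on either strand in 1 of the 33 genes, *Izumo1*, and in 2.03% of all genes. The shorter TGACG, which is contained in it, was found in 11 of the 33 genes (33.3%) and in 23.0% of all genes. The TATA box letters TATAAA were found in *Prm2* and *Crisp2* only (6.06%), compared with 15.7% of all genes. Such matches are letters in a window and not known binding sites.

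The 24 covered genes were spread over the whole range of methylation levels. The level of a gene is the percent of methylated reads among all reads at its commonly covered sites within 5 kb. Its mean over the 6 samples was under 10% in 9 of the 24 genes, between 10% and 80% in 7, and over 80% in 8. Among all 19731 genes, 72.3% were under 10%, 14.0% were between and 13.7% were over 80%. The median was 20.5% for the 24 genes and 2.48% for all genes.

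**Figure D1:**
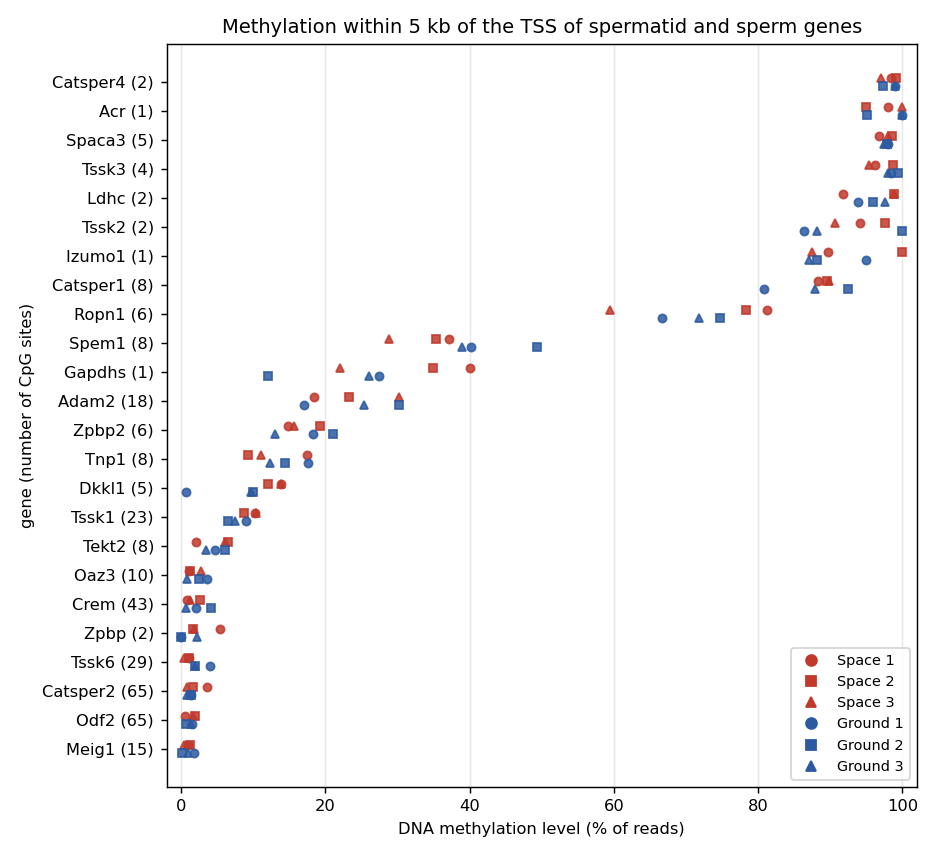
DNA methylation level within 5 kb of the TSS (x axis, percent of reads) for each of the 24 covered genes (y axis, with the number of CpG sites), with 1 point per sample, red for Space and blue for Ground GS cells. From Meig1 at 0.932% to Catsper4 at 98.3%, the order of the genes is far wider than the spread between the 6 samples of a gene.

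The number of sites varied with these levels. Among genes with 10 or more sites, 7 of 8 spermatid and sperm genes and 90.3% of all genes were under 10%. Among genes with 3 to 9 sites, 1 of 9 was under 10%, compared with 53.8% of all genes. Among genes with 1 or 2 sites, 5 of 7 were over 80%, compared with 53.8% of all genes. Within 1 kb of the TSS, 88.4% of the 251 sites of the described genes were under 10%, whereas this was 98.7% of the sites of all genes. At 1 to 5 kb, 26.7% of their 86 sites and 17.1% of the sites of all genes were over 80%. Promoter levels with at least 3 sites within 1 kb were found for 11 genes, of which 8 were under 10% and 3 were between 10% and 80%. Of 14373 such promoters in all, 95.3% were under 10%, 2.78% were between and 1.87% were over 80%. Genes with 1 or 2 sites within 1 kb were left out of these counts. They were *Catsper1* (97.7%), *Tssk1* (96.1%), *Tssk2* (93.2%), *Izumo1* (91.2%), *Gapdhs* (27.1%) and *Zpbp* (1.85%). These shares are descriptions, and no test of the 24 genes against the other genes was made.

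**Figure D2:**
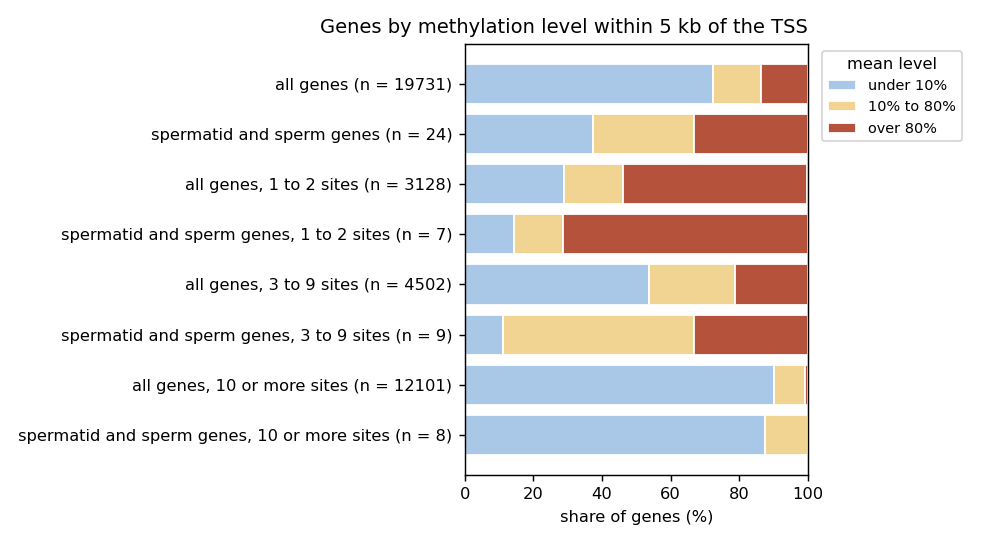
Share of genes (x axis, percent) with a mean methylation level under 10%, from 10% to 80% or over 80% within 5 kb of the TSS, for all genes and for the 24 covered spermatid and sperm genes, in total and by the number of CpG sites. With 10 or more sites, 90.3% of all genes and 87.5% of the 8 described genes are under 10%.

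Among the nuclear packaging genes, which encode the transition proteins and protamines that compact the sperm nucleus, *Tnp1* was the only one with commonly covered sites. Its 8 sites lay 32 to 177 bp downstream of the TSS, at chr1:73054890-73055035 of mm39. The levels were 17.5%, 9.29% and 11.1% in Space 1, 2 and 3, and 17.6%, 14.4% and 12.3% in Ground 1, 2 and 3. Space and Ground samples overlapped, with means of 12.6% ± 4.34 and 14.8% ± 2.70 (SD, n = 3). *Prm2* and *Tnp2* had 9 sites each with fewer reads than required. Their reads over all 6 samples were 95.9% methylated at *Prm2* (859 of 896 reads) and 92.2% at *Tnp2* (236 of 256 reads). The Wilson 95% intervals were 94.4% to 97.0% and 88.2% to 94.9%, and they leave out the spread between samples. They can be too narrow even for counting error, since molecules were not marked before PCR and a fragment can be counted at several of the 9 sites. For *Prm1*, a protamine of the mouse sperm nucleus, 1 read at 1 site was found, so no level can be given. *Prm3* was not in the table. The nearest site lay 516 bp from the TSS at *Prm2* and 39 bp at *Tnp2*.

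The 7 covered genes of the acrosome and of egg binding had levels from 1.85% to 98.0%. *Acr* encodes acrosin, the protease stored in the acrosome. Its only site, 3622 bp downstream of the TSS, had 98.0%, 95% and 100% in Space 1, 2 and 3, and 100%, 95.1% and 100% in Ground 1, 2 and 3. All 6 samples were highly methylated, with 31 to 51 reads each. *Izumo1*, required for sperm to fuse with the egg, had 1 site 944 bp upstream of the TSS with means of 92.4% ± 6.68 in Space and 90.1% ± 4.32 in Ground. *Spaca3*, an acrosomal lysozyme-like protein, was at 97.8% in both groups, at 5 sites 4424 to 4824 bp downstream. *Zpbp*, which helps to shape the acrosome, had 2 sites 136 and 156 bp downstream with a mean level of 1.85%. Neither Ground 1 nor Ground 2 had a methylated read at either site, with 34 and 32 reads at the first and 15 at the second in Ground 1 and 14 in Ground 2. The sites are close enough to be read on the same fragments, so these reads are not all independent.

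*Zpbp2*, the partner of *Zpbp*, combined both states. Its 5 sites at 17 to 45 bp downstream (chr11:98441939-98441967) had 0.395% ± 0.354 in Space and 2.00% ± 2.96 in Ground, and these sites lie in the CpG-rich end of the sequence printed above. A single site at 4919 bp downstream had 94.6% ± 0.839 and 95.2% ± 1.30. The level over all 6 sites was 14.8%, 19.2% and 15.6% in Space 1, 2 and 3, and 18.3%, 21.0% and 13.0% in Ground 1, 2 and 3. The groups overlapped, and the intermediate value is a mean over an unmethylated start and a methylated distant site.

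*Adam2*, which encodes the fertilin beta subunit on the sperm surface, showed the same kind of mixture within a shorter distance. Its level over 18 sites was 18.4%, 23.3% and 30.2% in Space 1, 2 and 3, and 17.1%, 30.2% and 25.3% in Ground 1, 2 and 3, so that the groups overlapped. The 3 sites at 1949 to 1862 bp upstream (chr14:66317043-66317130) had 98.2% ± 1.73 in Space and 98.0% ± 2.00 in Ground. The 3 sites at 337 to 246 bp upstream had 0.538% ± 0.931 in Space and no methylated read in Ground, and the 4 sites at 110 to 54 bp upstream had 3.06% ± 1.72 and 1.44% ± 1.18. Downstream, 8 sites at 513 to 704 bp (chr14:66314477-66314668) had 14.2% ± 10.1 and 14.7% ± 7.61. Space 3 (25.8%) and Ground 2 (23.4%) were the highest there, and the other 4 samples had 7.81% to 11.4%. The 8 sites had the same coverage as each other in each sample, 11 to 16 reads, so they were read on the same few fragments.

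*Dkkl1*, an acrosomal protein of spermatids, was the 1 gene of the 24 in which every Space sample lay above every Ground sample (5.62% of all genes). Its level over 5 sites was 13.9%, 12.1% and 13.9% in Space 1, 2 and 3, and 0.645%, 9.93% and 9.74% in Ground 1, 2 and 3. The means were 13.3% ± 1.01 and 6.77% ± 5.31, with a difference of 6.53 percentage points, and Ground 1 was far below the other Ground samples. The sites fell into 2 stretches, and neither separated the groups alone. At 981 to 996 bp downstream (chr7:44860574-44860589) Ground 1 had 1.75%, whereas the other 5 samples had 20% to 26.3%, and Ground 2 (24.4%) was higher than Space 2 (20%). At 375 to 377 bp downstream, Space 1 and Ground 1 had no methylated read and Space 3 had 10.6%. The level over 5 sites also depends on how the reads were divided between the stretches, so the separation holds for pooled reads. Each site of the first stretch had 33, 25 and 20 reads in Space 1, 2 and 3, and 19, 15 and 22 in Ground 1, 2 and 3. Each site of the second had 44, 49 and 71 in Space, and 49, 48 and 44 in Ground. As a mean over sites the difference was 5.76 points. The quasi-binomial test of the reads gave an unadjusted p of 0.0699 and an adjusted p of 0.914, and without Ground 1 the difference was 3.47 points. *Spaca1*, which is needed to anchor the acrosome to the nucleus, had reads in 4 samples only, at 19 sites, and its pooled level of 14.5% (29 of 200 reads) came mainly from Space 2 at 33.3%. *Spaca4*, a protein of the sperm head surface, had 25 reads that were all methylated. *Acrv1*, *Adam3* and *Crisp2* had no site within 5 kb, their nearest sites being 9640, 6752 and 19633 bp away.

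**Figure D3:**
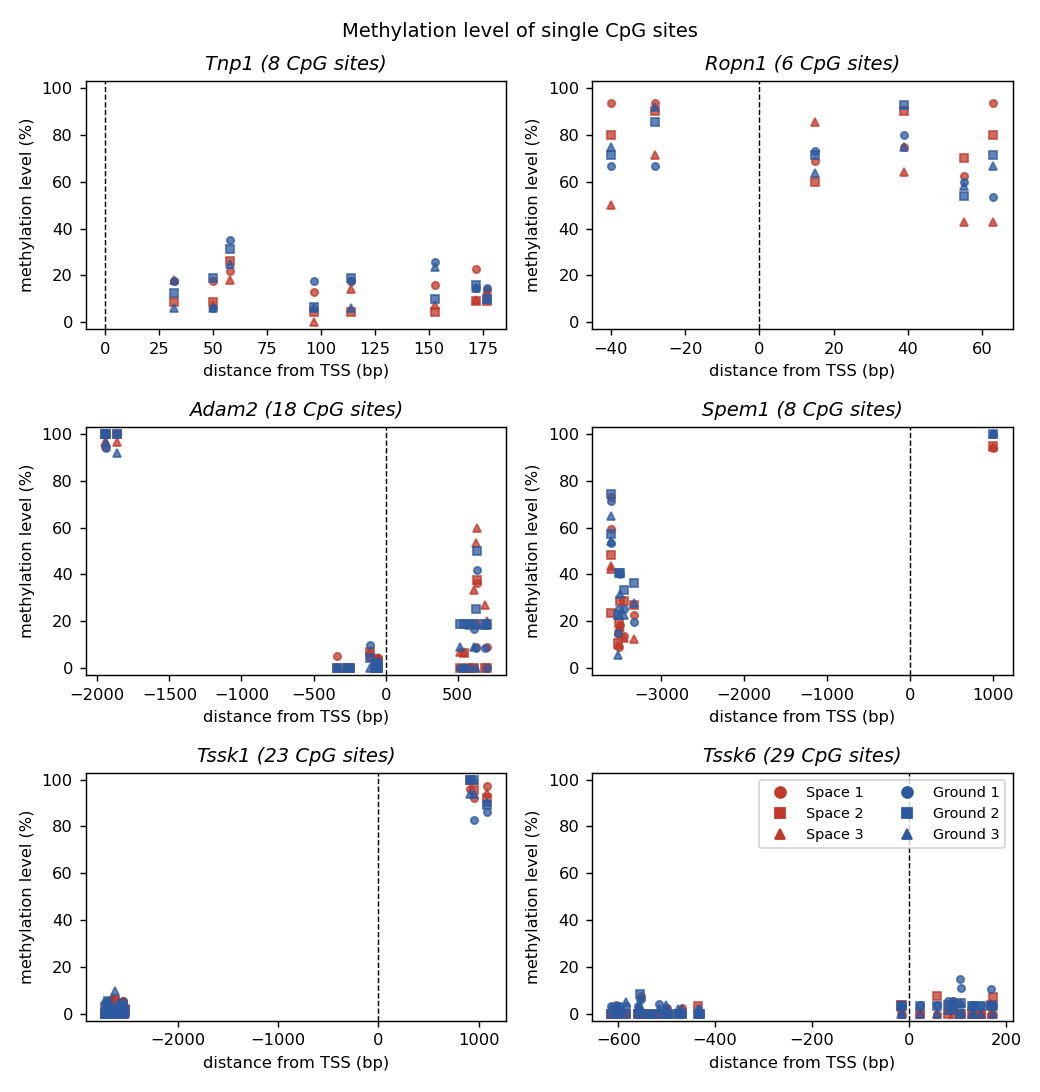
Methylation level (y axis, percent) of every commonly covered CpG site by distance from the TSS (x axis, bp, negative upstream) in Tnp1, Ropn1, Adam2, Spem1, Tssk1 and Tssk6, with 1 point per sample. Adam2 and Tssk1 have sites near 0% and sites near 100% within the same window, and red and blue points overlap in most positions.

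Among the flagellum genes, 4 of 8 covered genes were under 10%. *Odf2*, an outer dense fiber protein that is also found in centrosomes, had 65 sites with 1.41% in Space and 1.18% in Ground GS cells on average. *Tekt2*, a microtubule protein of the flagellum, had 8 sites 774 to 1016 bp downstream with 4.87% and 4.77%, and *Meig1*, needed to assemble the flagellum, had 15 sites 3447 to 3659 bp downstream with 0.866% and 0.998%. No commonly covered site lay closer to that TSS of *Meig1*. RefSeq lists a *Meig1* promoter with 3 CpGs (chr2:3422599-3422898 of GRCm38.p6) and, downstream of it, another with 19 CpGs (chr2:3419080-3419379). The sites 3447 to 3555 bp downstream have the spacing of CpGs in the 3′ part of the latter. By this spacing they lie in that second promoter. The sites 3624 to 3659 bp downstream lie beyond its end. The level given for *Meig1* is thus that of sites at and just beyond this second promoter. *Catsper2* had 65 sites from 664 bp upstream to 5 bp downstream, and its levels were 3.61%, 1.65% and 0.801% in Space 1, 2 and 3, and 1.32%, 1.37% and 0.770% in Ground 1, 2 and 3. The groups overlapped, with an unadjusted p of 0.166 and an adjusted p of 0.925 in the quasi-binomial test, and Space 1 was the highest sample. The TSS of *Pdia3*, a gene active in most cell types, lies 17 bp from that of *Catsper2* on the opposite strand, so these sites belong to the start of both genes. Without Space 1 the difference was 0.0711 percentage points.

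The subunits of the CatSper calcium channel, which drives hyperactivated swimming, did not share a level. In contrast to *Catsper2*, *Catsper4* had 98.2% in Space and 98.4% in Ground GS cells at 2 sites more than 4 kb upstream. *Catsper1* had 88.3%, 89.6% and 89.8% in Space 1, 2 and 3, and 80.8%, 92.4% and 87.9% in Ground 1, 2 and 3, over 8 sites. Its 2 sites nearest the TSS, 60 bp upstream and 24 bp downstream (chr19:5385708-5385792), had 99.0% ± 1.75 and 96.4% ± 3.57, so its methylation reached the start itself. The groups overlapped, and Ground 1 was the lowest sample, with 56.2% at the 3 sites 3715 to 3651 bp upstream where the others had 82.5% to 87.5%. *Catsper3* had no site within 5 kb.

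*Ropn1*, which encodes a protein of the fibrous sheath of the sperm tail, had an intermediate level at the TSS itself. Its 6 sites lay from 40 bp upstream to 63 bp downstream (chr16:34470250-34470353). The levels were 81.2%, 78.3% and 59.5% in Space 1, 2 and 3, and 66.7%, 74.7% and 71.8% in Ground 1, 2 and 3. The highest and the lowest sample were both Space GS cells, with means of 73.0% ± 11.8 and 71.1% ± 4.07, and each site had 10 to 16 reads.

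*Spem1*, needed to remove cytoplasm from the head and neck of maturing sperm, had lower levels in every Space sample than in every Ground sample. The levels over 8 sites were 37.1%, 35.4% and 28.9% in Space 1, 2 and 3, and 40.2%, 49.4% and 38.9% in Ground 1, 2 and 3, with means of 33.8% ± 4.30 and 42.8% ± 5.72. The gap between the closest samples, Space 1 and Ground 3, was narrow compared with the spread within either group. In the quasi-binomial test the difference of -9.03 percentage points had an unadjusted p of 0.0586 and an adjusted p of 0.906, and it was -5.75 points without Ground 2 and -4.22 with a coverage minimum of 5 reads. It was found mainly at 6 sites 3610 to 3446 bp upstream (chr11:69716451-69716615), with 30.0% ± 5.48 in Space and 41.2% ± 5.88 in Ground. The groups barely separated there, with Space 1 at 36.1% and Ground 3 at 36.2%. The exact permutation test gave 0.1, the smallest p that 3 against 3 samples allow. This stretch was singled out after its values were seen, so that p is no support for a difference. The farthest of these 6 sites, 3610 bp upstream, had the largest difference of the 337 sites. It had 73.1%, 23.5% and 43.5% in Space 1, 2 and 3, and 71.4%, 57.1% and 65.0% in Ground 1, 2 and 3. Its groups overlapped, as Space 1 was the highest of the 6 samples. Near the gene, 1 site 1008 bp downstream had 94.3% ± 0.507 in Space and 100% in all Ground samples, at 14 to 20 reads per sample.

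Of the remaining flagellum genes, *Tekt1*, another tektin, had 8 methylated reads of 1093 at 15 sites (0.732%, Wilson 95% interval 0.371% to 1.44%). *Sun5*, which joins the sperm head to the tail, had 158 methylated reads of 175 at 4 sites (90.3%, interval 85% to 93.8%), and *Tekt4* had 29 of 32. These counts are summed over sites, so a fragment that spans several sites is counted more than once. The intervals are therefore too narrow. *Odf1*, an outer dense fiber protein, had 2 reads, and *Smcp*, a protein of the mitochondrial capsule, was not in the table.

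The genes of sperm energy metabolism encode sperm-specific forms of glycolytic enzymes. *Gapdhs*, the sperm form of glyceraldehyde-3-phosphate dehydrogenase, had the largest difference of the 24 genes, at a single site 550 bp upstream of the TSS (chr7:30443655). The levels were 40.0%, 35.0% and 22.0% in Space 1, 2 and 3, and 27.5%, 12.1% and 26% in Ground 1, 2 and 3, from 30 to 50 reads per sample. Space 1 and 2 were the highest and Ground 2 the lowest, but Space 3 lay below Ground 1 and Ground 3. The Wilson 95% intervals of the extreme samples were 24.6% to 57.7% in Space 1 and 4.82% to 27.3% in Ground 2. The means were 32.3% ± 9.32 and 21.9% ± 8.48, and the difference of 10.4 percentage points had an unadjusted p of 0.341 and an adjusted p of 0.973. It was 5.57 points without Ground 2. *Ldhc*, the testis lactate dehydrogenase, had 2 sites more than 4 kb downstream with 91.7%, 98.8% and 98.8% in Space 1, 2 and 3, and 93.8%, 95.9% and 97.6% in Ground 1, 2 and 3. The groups overlapped, and all samples were highly methylated. *Pgk2*, the testis phosphoglycerate kinase, had 2 reads within 5 kb, both in Ground 1, and no level can be given.

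The testis-specific serine kinases, which act late in spermatid development, fell at both ends of the range. *Tssk2* had 94.1% in Space and 91.5% in Ground GS cells at 2 sites, and *Tssk3* 96.8% and 98.6% at 4 sites. *Tssk1* had 10.2%, 8.71% and 10.4% in Space 1, 2 and 3, and 8.96%, 6.54% and 7.49% in Ground 1, 2 and 3. The groups overlapped, since Ground 1 was above Space 2, and the unadjusted p was 0.0677 with an adjusted p of 0.908. The difference of 2.11 percentage points was 0.535 with a minimum of 20 reads, 0.524 as a mean over sites and 4.72 within 2 kb. This low level came from 20 sites 2727 to 2527 bp upstream (chr16:17709359-17709559), at 1.49% in both groups. Its 2 sites 919 and 959 bp downstream, within the promoter window, were at 97.2% ± 3.09 in Space and 95% ± 4.48 in Ground. These 2 sites had 49, 44 and 58 reads in Space 1, 2 and 3, and 46, 24 and 32 in Ground 1, 2 and 3. A further site 1085 bp downstream had 94.6% ± 2.56 and 88.6% ± 2.12, with 38, 39 and 34 reads in Space and 29, 46 and 31 in Ground. The difference over the window therefore also depends on the share of reads at these methylated sites.

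*Tssk6*, which sperm need to fuse with the egg, had the smallest p of the 24 genes. Its 29 sites lay from 615 bp upstream to 174 bp downstream (chr8:70354218-70355007), and 3 of them were among the 14 CpGs of the promoter printed above. The levels were 1.12%, 1.04% and 0.423% in Space 1, 2 and 3, and 4.06%, 1.97% and 1.90% in Ground 1, 2 and 3, from 837 to 1183 reads per sample summed over sites. Each site had 11 to 72 reads, and the 29 sites had 9 different sets of coverage over the 6 samples. Many sites were thus read on the same fragments, so these reads are not all independent. Every Ground sample was above every Space sample, although all 6 were under 5%. The means were 0.860% ± 0.380 and 2.64% ± 1.23, with an unadjusted p of 0.0125 and an adjusted p of 0.906 in the quasi-binomial test, ranking 263 among the windows tested. Ground 1 was the highest, and without it the difference was -1.07 instead of -1.78 percentage points. Neither of the 2 stretches of sites separated the groups alone. At 615 to 431 bp upstream Ground 2 had 0.679%, below Space 1 at 1.01%, and at 16 bp upstream to 174 bp downstream Ground 3 had 0.988%, below Space 1 at 1.23%. The TSS of *Ndufa13*, a subunit of mitochondrial complex I, lies 374 bp downstream on the opposite strand.

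The regulators were both unmethylated. *Crem*, whose testis form activates many spermatid genes, had 0.860%, 2.60% and 1.21% in Space 1, 2 and 3, and 2.02%, 4.12% and 0.749% in Ground 1, 2 and 3, at 43 sites within 1 kb of the TSS used in the table. The groups overlapped, with Ground 3 the lowest and Ground 2 the highest. The gene has several promoters, and the sites of the table stand for the TSS that was closest. *Oaz3*, the spermatid form of antizyme, which limits polyamine levels, had 1.67% ± 0.916 and 2.31% ± 1.41 at 10 sites 152 to 291 bp downstream. The TSS of *Mrpl9*, a mitochondrial ribosomal protein gene, lies 597 bp from it on the opposite strand.

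To compare Space GS cells with Ground GS cells across these genes, the test was fitted on all 19663 windows with a result and adjusted over them. No window passed an adjusted p of 0.05, among the 24 genes or among all genes (0%). An unadjusted p under 0.05 was found in 1 of the 24 genes, *Tssk6*, against 5.4% of all windows. By edgeR's quasi-likelihood test and by limma on log2 ratios, 0 windows passed, 859 and 987 windows had an unadjusted p under 0.05, and 1 of the 24 genes was among them in each test. The samples of the groups did not overlap, with Space higher, in 1 gene, *Dkkl1* (5.62% of all windows), and with Space lower in 2, *Tssk6* and *Spem1* (3.8%). Among promoters, 0 of 11 genes passed (0% of 14361), and 1, *Tssk6*, had an unadjusted p under 0.05 (5.31% of all). Promoter samples did not overlap, with Space higher, in 1 of the 11 genes (5.69% of all), and with Space lower in 1 (3.86%), and these were *Dkkl1* and *Tssk6*. These shares give the rate at which such results arose in the whole table.

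**Figure D4:**
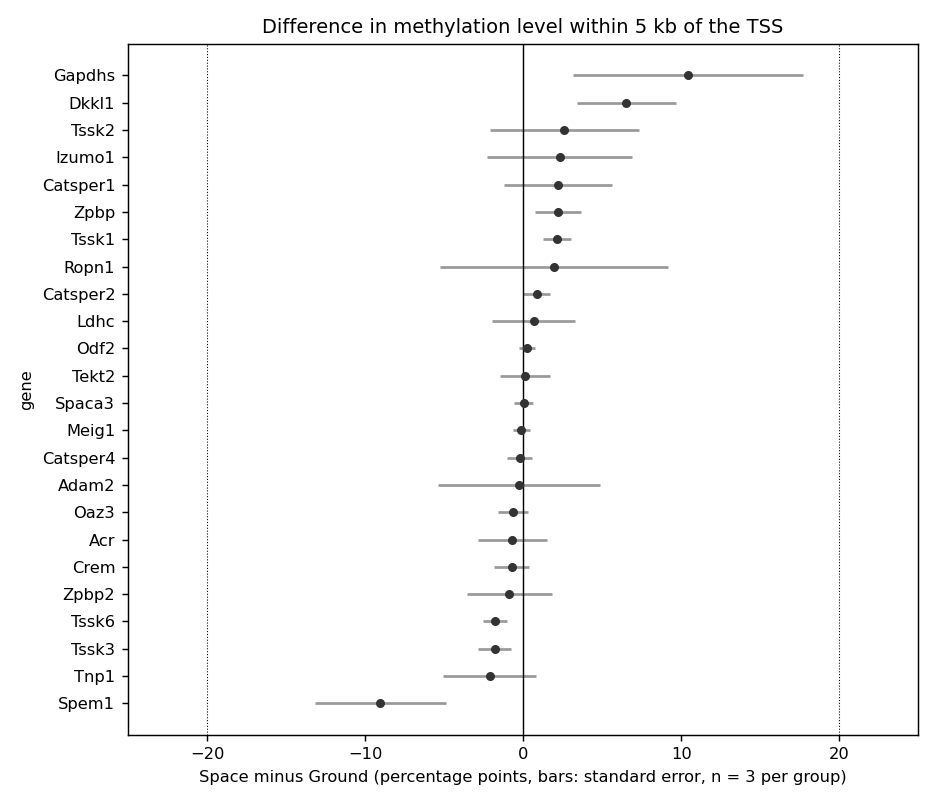
Difference in methylation level within 5 kb of the TSS, Space minus Ground (x axis, percentage points), for the 24 covered genes (y axis), with bars for the standard error of the difference (n = 3 per group) and dotted lines at 20 points. The differences lie between -9.03 (Spem1) and 10.4 (Gapdhs), and no gene reaches the dotted lines.

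The differences were small in most of these genes. The mean was higher in Space in 13 and lower in 11 of the 24 genes, with a median difference of 0.0618 percentage points, compared with 0.102 over all genes. The median absolute difference was 1.33 points in the 24 genes and 0.790 in all genes. Averaged over the 24 genes, each with equal weight, the level was 41.8%, 42.4% and 40.2% in Space 1, 2 and 3, and 40.3%, 41.7% and 40.5% in Ground 1, 2 and 3. The means of 41.4% ± 1.13 and 40.8% ± 0.764 differed by 0.581 points, less than the spread between replicates, and the samples overlapped.

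At single sites, a difference of more than 20 percentage points between the group means was found at 0 of the 337 sites. Over all 681804 commonly covered sites, 0.113% were more than 20 points higher and 0.0826% more than 20 points lower in Space. Of these genes, 51 sites had a mean level of 5% to 95% and were tested together with all 92042 such sites. None passed an adjusted p of 0.05 (0% of all), and 1 had an unadjusted p under 0.05 (5.61% of all). This was a site 578 bp downstream of the TSS of *Adam2*, with no methylated read in the 3 Space samples and in Ground 1, and with 18.8% and 18.2% in Ground 2 and 3. Its coverage was 11 to 16 reads, its unadjusted p was 0.0172 and its adjusted p was 0.814. The samples did not overlap at 2 of the 51 sites with Space higher (4.94% of all), in *Catsper1* and *Tssk1*, and at 3 with Space lower (4.13%), of which 2 were in *Spem1* and 1 in *Tssk3*.

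Other genes of late spermatogenesis were examined in the same table. Of a list of 50 further spermatid genes, 27 had a window, of which 15 were under 10%, 5 were between and 7 were over 80%, with a median of 4.35%. None passed the adjusted threshold, and 1, *Ropn1l*, a relative of *Ropn1* in the radial spokes of the flagellum, had an unadjusted p of 0.0435 (adjusted p = 0.906), with 2.98% in Space and 0.600% in Ground. Of 14 regulators of the post-meiotic program, 12 had a window and 10 of these were under 10%. None passed, and 2 had an unadjusted p under 0.05, both with higher means in Space. Over all windows 5.4% had such a p, and 649 of these 1062 had a higher mean in Space. These were *Boll*, an RNA-binding protein, with 2.21% and 1.44% (adjusted p = 0.906), and *Ddx25*, an RNA helicase of spermatids, with 2.42% and 0.134% (adjusted p = 0.906), where Space 1 (0.377%) was below Ground 1 (0.402%).

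The labelled cell type was checked at marker promoters. Of 10 germline genes that somatic cells methylate, the 8 with a tested promoter, such as *Ddx4*, *Dazl* and *Mael*, were under 10%, with means over the 6 samples from 0.740% to 7.03%. Of 8 spermatogonial genes, the 7 with a tested promoter, such as *Gfra1*, *Etv5* and *Zbtb16*, were also under 10%. The 3 testable promoters of the 9 feeder and fibroblast genes were under 10% too, so these promoters do not separate the cell types. The *Twist1* promoter was at 0.731% in Space and 1.81% in Ground (unadjusted p = 0.0184, adjusted p = 0.912) without overlap of the samples. Within 5 kb, 4 feeder and fibroblast genes had a higher and 3 a lower mean in Space, with a median difference of 0.125 points. The lower ones included *Thy1*, a surface protein of fibroblasts and also of spermatogonia, with the largest difference of the list, at 48.8% ± 0.385 in Space and 59.6% ± 4.03 in Ground (unadjusted p = 0.0288, adjusted p = 0.906), and whether differences in feeder cells between samples had a part in the values given here was not tested.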

How the data were processed

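DNA methylation of 6 samples was measured by RRBS (Zymo-Seq RRBS kit on DNeasy DNA). The submitters' processing notes name Trim Galore, Bismark 0.24.2, methylKit and the build mm39. Read filters and the handling of duplicate reads are not given in the sources used here, and duplicates would make counting errors too small. The authors deposited 1 table with, for each of 2268080 CpG sites and each sample, the coverage as a count of reads, the methylated percent, and the closest TSS. Exons and introns were not assigned, since no mm39 annotation was used here.

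Multiplying coverage by percent gave methylated reads, within 0.000266 of a whole read. The 681804 sites with 10 or more reads in every sample were kept, and reads were summed per gene within 5 kb or, with at least 3 sites, 1 kb of the TSS. In these sums a fragment that covers several sites counts as a read at each of them. Groups followed the sample titles. Methylated and total reads were compared with a quasi-binomial test whose dispersion was moderated by limma 3.58.1 (squeezeVar) in R 4.3.3, with Benjamini-Hochberg adjustment over all features and a threshold of 0.05. Single sites with a mean level of 5% to 95% were tested likewise. The test was tested on simulated data. Two-sided exact permutation tests served for single values. Alternatives were edgeR 4.0.16, limma on log2 ratios with 2 reads added, other coverage minimums and distances, a replicate block, and leaving out each replicate.

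The 40 genes and the other lists were chosen with earlier results of these data known. Values in every sample were given for genes with a mean level of 10% to 90%, for the 5 smallest p-values of windows and of promoters, for genes with a site differing by more than 20 points, and for *Prm1*, *Tnp1*, *Acr*, *Pgk2*, *Ldhc* and *Crem*. *Spem1*, *Dkkl1* and *Adam2* sites were singled out after their values were seen.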

Additional observations from a re-analysis of the deposited data

How the results depend on the processing

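No window and no promoter passed the adjusted threshold in any setting run, and the smallest adjusted p of a described gene ranged from 0.529 with the replicate block to 1.0 with edgeR's quasi-likelihood test among windows. Single sites that passed numbered 0 to 5 when a replicate was left out, with 1 without Space 2, 3 without Space 3 and 5 without Ground 1, and none was a site of the described genes. Sites of these genes with a difference over 20 points numbered 0 to 2 when a replicate was left out, with 2 without Space 1 or Ground 2 (*Adam2* and *Spem1*), 1 without Space 2 (*Adam2*), 1 without Space 3 (*Ropn1*) and 1 without Ground 3 (*Catsper1*). The mean difference over the 24 genes, 0.581 points, was 0.114 to 1.21 when a replicate was left out. A replicate block cannot change this mean, since each number occurs once in both groups. With a minimum of 20 reads the mean difference was 0.136, over the 21 genes left. Within 1 kb it was 1.27, over the 17 genes with a site there. In these last settings the set of genes changed as well. To look for pairs, the deviation of each sample from its group mean was taken at each tested single site. These deviations, and not the levels themselves, were correlated between Space and Ground samples. With the same replicate number the correlations were 0.0438, 0.022 and 0.00988, with a mean of 0.0252. For different numbers the mean was -0.0126. Deviations cancel within a group, so this second mean is nearly fixed by the first and adds no information. Such low values cannot decide whether equal numbers are pairs, since the deviations contain counting error. Samples with equal numbers also carry neighbouring code numbers, but no source states a pairing, and the numbers were not taken as pairs. With the replicate block 0 windows, 0 promoters and 0 sites passed, and 1795 windows had an unadjusted p under 0.05 instead of 1062, of which 4 were described genes instead of 1. Of the 14 named genes with a level, 7 kept the sign of their difference in every setting (*Catsper2*, *Dkkl1*, *Gapdhs*, *Spem1*, *Tnp1*, *Tssk1* and *Tssk6*). Several settings kept the same sites and so could not change the value. At *Gapdhs*, with 1 site, the other coverage minimums, 2 kb and the mean over sites all gave 10.4 points. At *Catsper2*, *Dkkl1*, *Tnp1* and *Tssk6* every site lay within 2 kb. The size of the differences was less stable than the sign. *Tssk1* moved from 2.11 points to 0.535 for a minimum of 20 reads, 0.524 as a mean over sites and 4.72 within 2 kb. *Dkkl1* was at 4.14 points for a minimum of 20 reads and *Spem1* at -4.22 for a minimum of 5. With 3 replicates per group an exact test cannot go below p = 0.1, and 16 of the 40 genes had no level, 10 for too few reads, 4 for no site within 5 kb and 2 for not being in the table.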
